A study of Homo sapiens with 6 samples.

Results

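The genes described here are those of human chromosome 2 with enough reads to follow a small shift, which were chosen by 2 criteria, a place on chromosome 2 in the count table and a mean of at least 100 counts over the 6 libraries. Of the 31831 genes in the table, 2083 lay on chromosome 2 and 811 of these met the minimum. The low-count filter removed 1 of them, so 810 entered the fit. The chromosome was singled out because its genes had been seen to shift lower, so every difference between the groups below is a description and carries no test of its own.

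RNA-seq was performed on HK-2, an immortalised human cell line derived from kidney proximal tubule. All cells were kept for 72 h in medium with 30 mM glucose. The 3 HG-NC libraries came from cells with the control vector and the 3 HG-OE libraries from cells that overexpressed hnRNP-F through a lentivirus, and neither group carried any other stated change. The samples of a group were parallel wells, and the sources used here do not say whether each was infected separately, so errors between libraries may be technical. HNRNPF, the gene of hnRNP-F on another chromosome, had 7733, 8623 and 8692 counts in HG-NC and 12492, 13155 and 12397 in HG-OE (log2 fold change 0.48 ± 0.0388, standard error). These counts do not separate the construct from the cell's own gene.

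Library totals ran from 25507595 to 29444841 counts. Of 12 kidney epithelium markers, 9 to 11 reached 10 counts in a library. PAX8 had 11953 to 18291 counts, and the receptors and transporters of the mature proximal tubule were low, with LRP2 at 0 in 5 libraries and 17 counts in HG-OE 3. HG-OE 3 stood apart by liver transcripts. Its ALB count was 4359, against 0 and 1 in the other HG-OE libraries and 4, 1 and 78 in HG-NC. All 14 liver markers reached 10 counts there, against 10 in HG-NC 3 and 2 or 3 in the remaining libraries. The summed level of the list was 766 CPM in HG-OE 3 (CPM being counts scaled to the library size), 461 and 463 CPM in the other HG-OE libraries, and 266 to 277 CPM in HG-NC, where SERPINA1 made up most of it. Where a called value named below moved by over 1.5 times without HG-OE 3, both values are given.

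Chromosome 2 is one of the largest human chromosomes and holds genes of many unrelated kinds. Among them are fibronectin, the HOXD cluster that patterns the body axis, the interleukin-1 family, several integrins and many genes of splicing and translation. Most genes that every cell uses start in promoters rich in CpG, a C followed by a G, whereas many inducible and tissue-specific genes start in promoters with few of them. hnRNP-F itself is an RNA-binding protein that takes part in splicing.

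The promoters of 4 genes are shown because these genes sit at different distances from the chromosome's median and differ in CpG. Each sequence holds the 250 bases before the RefSeq start site (GRCh38.p14), written 5′ to 3′ on the gene's own strand, with every CG in capitals. TNFAIP6 (chr2:151357342-151357591, plus strand) encodes a hyaluronan-binding protein induced by inflammatory cytokines. CCL20 (chr2:227813592-227813841, plus strand) encodes a chemokine. HSPE1 (chr2:197500129-197500378, plus strand) encodes the small subunit of the mitochondrial chaperonin. DPP4 (chr2:162074216-162074465, minus strand) encodes a membrane peptidase.
TNFAIP6: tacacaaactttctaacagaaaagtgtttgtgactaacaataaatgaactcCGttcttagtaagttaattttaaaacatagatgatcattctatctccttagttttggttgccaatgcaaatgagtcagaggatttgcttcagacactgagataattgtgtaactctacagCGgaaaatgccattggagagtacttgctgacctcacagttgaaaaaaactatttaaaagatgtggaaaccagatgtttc
CCL20: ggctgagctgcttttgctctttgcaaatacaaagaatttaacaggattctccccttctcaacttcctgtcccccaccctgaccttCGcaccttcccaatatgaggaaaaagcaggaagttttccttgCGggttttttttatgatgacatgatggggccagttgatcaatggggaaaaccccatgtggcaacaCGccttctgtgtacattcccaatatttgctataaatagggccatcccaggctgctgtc
HSPE1: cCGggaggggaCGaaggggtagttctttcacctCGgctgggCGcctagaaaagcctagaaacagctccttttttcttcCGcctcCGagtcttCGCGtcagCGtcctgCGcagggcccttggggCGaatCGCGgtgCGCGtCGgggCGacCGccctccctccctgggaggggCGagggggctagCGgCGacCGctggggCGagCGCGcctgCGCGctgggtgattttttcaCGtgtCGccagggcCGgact
DPP4: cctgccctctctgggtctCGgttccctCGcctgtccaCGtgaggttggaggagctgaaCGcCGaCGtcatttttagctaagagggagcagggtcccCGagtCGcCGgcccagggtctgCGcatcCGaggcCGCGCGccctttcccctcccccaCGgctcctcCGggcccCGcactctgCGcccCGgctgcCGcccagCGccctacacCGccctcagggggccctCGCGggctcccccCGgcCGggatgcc
The TNFAIP6 and CCL20 windows held 2 and 3 CG, the DPP4 window 26 and the HSPE1 window 30. Their GC content was 34.4%, 46.8%, 73.6% and 68.4% in that order. The log2 fold changes of HG-OE over HG-NC were -2.19 for TNFAIP6, -1.41 for CCL20, -0.28 for HSPE1 and 0.90 for DPP4, so the CpG-rich pair took in both a gene at the chromosome's median and a gene far above it.

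The whole chromosome sat lower in HG-OE. Across the 810 genes, the middle log2 fold change was -0.278, or 0.825 times the HG-NC level, which is 17.5% lower. The 11555 equally well-counted genes on other chromosomes had a median of 0.008. On chromosome 2, 662 genes (81.7%) were below 0, against 48.9% elsewhere. The interquartile range was 0.372, from -0.457 to -0.085, and 485 genes (59.9%) lay within 0.25 of the median. The pooled genes of the other chromosomes had an interquartile range of 0.471, which also holds the differences between chromosome medians. Single other chromosomes ran from 0.362 (chromosome 16) to 0.643 (chromosome 3), so a range of this size was not particular to chromosome 2. The median standard error of one gene was 0.0621, well under the range between genes. In bulk RNA, a small difference in all cells and a larger one in some of them cannot be told apart.

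The shift had nearly the same size in each HG-OE library. Each HG-OE library was set against the mean of all HG-NC libraries, and each HG-NC library against the mean of the other HG-NC libraries. The median log2 ratio of the genes was then 0.021, -0.013 and -0.009 in HG-NC 1, 2 and 3, and -0.270, -0.284 and -0.263 in HG-OE 1, 2 and 3. The HG-OE values lay close together, with a mean of -0.272 and an SD of 0.0107. The share of all counts that fell on chromosome 2 was 6.58%, 6.51% and 6.52% in HG-NC and 5.48%, 5.46% and 5.53% in HG-OE, or 6.53% ± 0.0386 against 5.49% ± 0.0365 (SD, n = 3 libraries each). The groups did not overlap in either measure. Without HG-OE 3 the median was -0.285 and 668 genes were below 0, so the shift was as large without that library.

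With edgeR's quasi-likelihood test, adjusted over all 17142 genes tested, 513 of the 810 genes (63.3%) were called lower at an adjusted p under 0.05, against 32.2% of all genes with at least 100 counts. In the other direction 59 (7.28%) were called higher, against 29.7% of all such genes, and 238 were not called. Few changes were large. With a 2-fold change also required, 14 were called lower (1.08% over all genes) and 3 higher (1.63%). All 3 HG-OE libraries lay below all 3 HG-NC libraries in 539 genes (66.5%, against 35.2% over all genes) and above them in 67 (8.27%, against 32.6%), and the groups overlapped in 204. Since the chromosome was singled out by this contrast, nothing is read from these shares.

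The minimum of 100 counts fell among genes that were too thinly read to place well. Just above it were WBP1 with a mean of 100.2 counts (log2 fold change -0.16) and ICA1L with 101.2 (-0.56). Just below it were CARF with 97.8 (0.22), TMEM17 with 97.8 (-0.21) and TMEM169 with 97.7 (0.37). The 330 tested genes of the chromosome under the minimum had a median of -0.129 and an interquartile range of 0.861, and 185 of them were below 0.

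**Figure D1:**
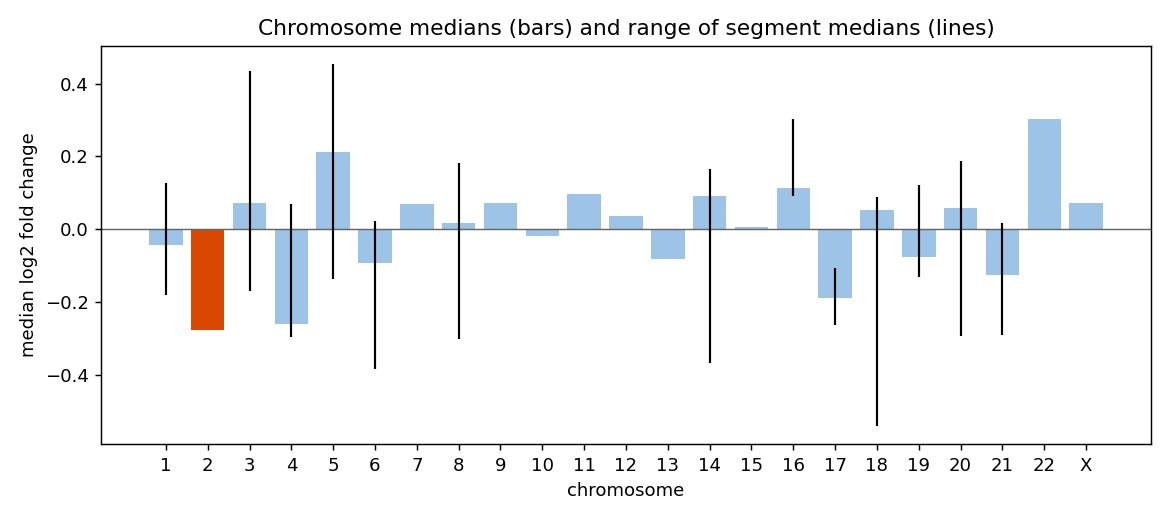
Median log2 fold change (vertical axis) of the genes with at least 100 counts on each chromosome (horizontal axis), as bars from 0, with a line from the lowest to the highest segment median. Chromosome 2, in orange, has the lowest bar at -0.278 and a single segment, while chromosome 22 has the highest at 0.304.

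Chromosome 2 had the lowest median of the 23 chromosomes compared. Chromosome 4 was close to it at -0.262, and chromosome 17 followed at -0.19. The segmentation described next left chromosome 2 as 1 segment, whereas chromosome 4 was divided into 2 segments (medians 0.07 and -0.30) and chromosome 17 into 3 (medians -0.11, -0.26 and -0.14). Chromosome 17 had nearly the same interquartile range as chromosome 2 (0.383 against 0.372) and less noise between adjacent genes (0.251 against 0.293), which lowers the penalty for an edge. The other chromosomes were segmented with 1 setting only. In all, 10 of the 23 chromosomes were left whole and 13 were divided. The plot of chromosome medians shows how far the segments of the other chromosomes ranged. How chromosome 2 and the other chromosomes differ was not tested.

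Segment edges were sought by dividing the genes, in positional order, into stretches of at least 10 genes with different mean log2 fold changes, each edge having to pay a penalty set by the noise between adjacent genes (0.293). No edge was found. The single segment ran from FAM110C, the first gene of the short arm with enough counts, to D2HGDH, the last of the long arm (chr2:38814-241768816, GRCh38). The 338 genes of the short arm had a median of -0.283 and the 472 of the long arm one of -0.268, with 285 and 377 below 0. The centromere, between LSP1P4 and BMS1P23, was thus no edge either.

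**Figure D2:**
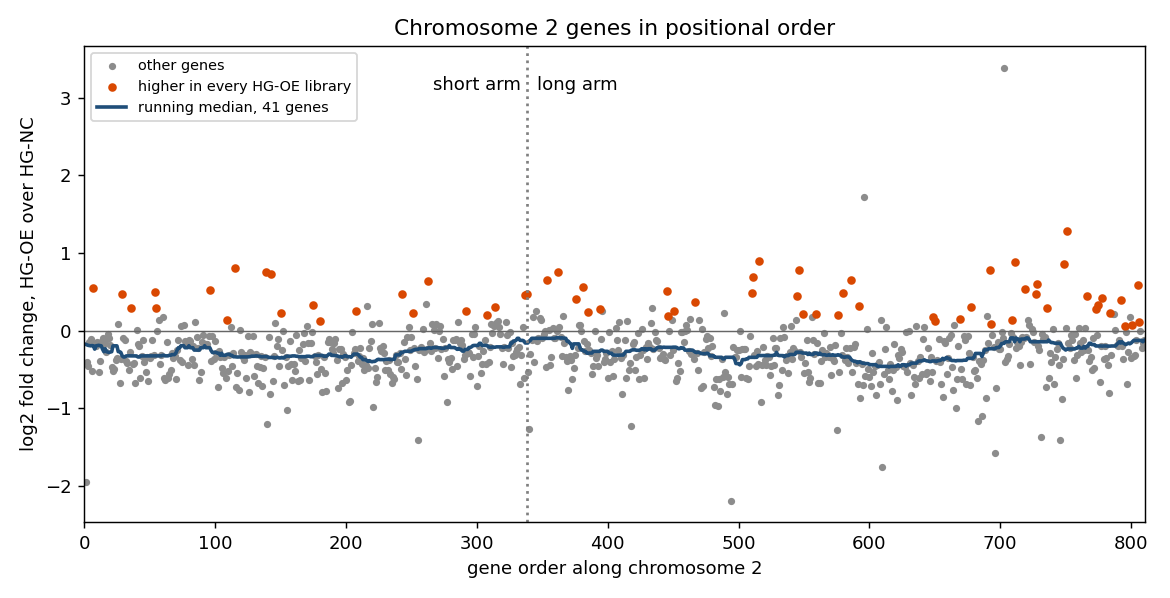
Log2 fold change of HG-OE over HG-NC (vertical axis) of the 810 genes in their order along chromosome 2 (horizontal axis), with the 67 genes above every HG-NC library in all HG-OE libraries in orange and a running median over 41 genes as a line. The line stays below 0 from end to end, between -0.468 and -0.092, and the orange points are scattered along both arms.

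Of the 20 settings of the segmentation, the one above included, 17 left the chromosome whole, 2 gave 2 segments and 1 gave 3. Most settings ran the same segmentation on nearly the same fold changes, so the 17 are not separate evidence for 1 segment. Among those that changed the segmentation itself, a penalty of 8 and minimums of 5 and 20 genes left it whole. A penalty of 3 and values not limited divided it. Every edge that appeared lay in the distal long arm. With the minimum raised to 300 counts, the edge fell between ZNF142 and BCS1L, adjacent genes whose gene bodies overlap (BCS1L begins at position 218658764 and ZNF142 ends at 218659655), with medians of -0.312 before it and -0.143 after it. With outlying values not limited, the edge fell between PNKD and TMBIM1, with medians of -0.296 and -0.149. In that setting the value of VIL1, 2 genes further on, entered whole.

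The setting that divided the chromosome most, a penalty of 3 in place of 5, outlined a lower stretch between milder ones. Its first edge lay between SLC40A1 and ASNSD1 and its second between MREG and PECR. The 598 genes before the first edge had a median of -0.282, the 91 from ASNSD1 to MREG (chr2:189661385-216034096) one of -0.439, and the 121 from PECR to D2HGDH (chr2:215996329-241768816) one of -0.154. Called lower were 64.4%, 79.1% and 46.3% of them. In HG-OE 1, 2 and 3 the middle stretch had medians of -0.415, -0.443 and -0.412. The last stretch had -0.167, -0.177 and -0.127, and the first -0.270, -0.294 and -0.269. This order was the same in each library, but the edges were drawn from the fold changes of these same libraries. It is thus a description and no separate support for the edges. The medians of the HG-NC libraries lay within 0.04 of 0 in each stretch. At the second edge, MREG, which acts in melanosome and lysosome traffic, was at 17.4, 16.7 and 18.5 CPM in HG-NC and 9.79, 9.58 and 9.46 CPM in HG-OE. Its neighbour PECR, a peroxisomal reductase, was at 10.7, 12.4 and 11.99 CPM in HG-NC and 14.4, 13.6 and 12.1 CPM in HG-OE. MREG was lower in each HG-OE library, while the groups overlapped in PECR.

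**Figure D3:**
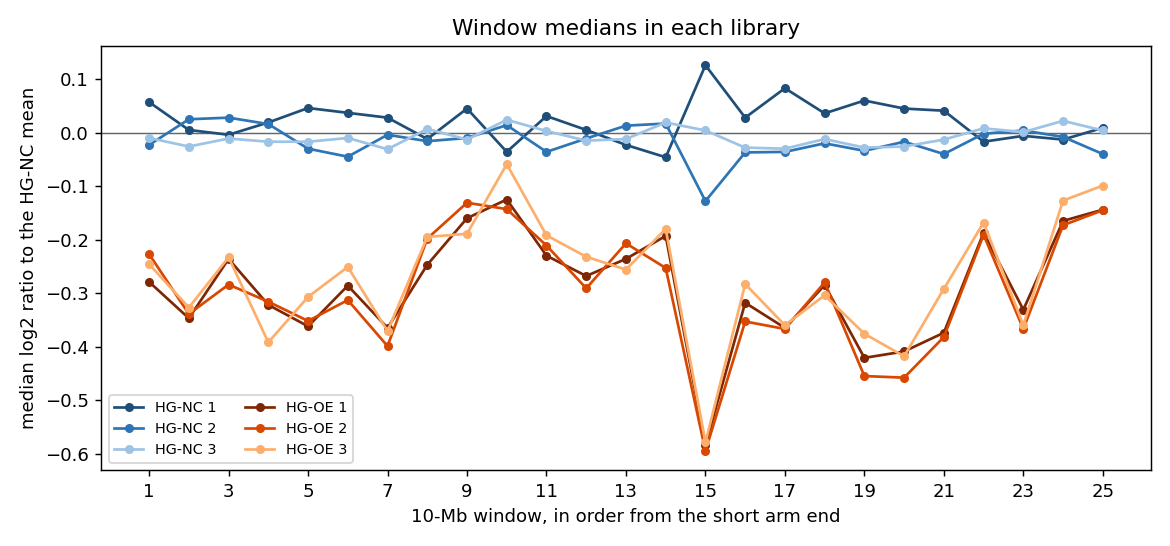
Median log2 ratio to the HG-NC mean (vertical axis) of the genes in each of 25 windows of 10 Mb, in order from the end of the short arm (horizontal axis), with a line for each library. The 3 HG-OE lines lie below 0 in every window and move together. The HG-NC lines, each set against the mean of the other HG-NC libraries, stay within 0.128 of 0.

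In windows of 10 Mb, which held 9 to 63 genes, all 25 medians were below 0, and this held in each HG-OE library taken alone. The medians ran from -0.619 to -0.099. The profile along the chromosome was similar between libraries: over the 25 windows, log2 ratios taken in 3 pairs of libraries that share none correlated at a Pearson r of 0.81, 0.90 and 0.86 (Spearman 0.81, 0.80 and 0.85). The windows share their genes across pairs, so these values describe the profile and carry no p. The highest window, from 90 to 100 Mb, spans the centromere. The running median over 41 genes was highest there, at -0.092 near SEMA4C, and lowest at -0.468 near NABP1, inside the lower stretch named above.

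The lowest window, from 140 to 150 Mb, held only 9 genes, of which 8 were called lower. ZEB2, a repressor of epithelial genes, was at 40.4, 40.9 and 37.6 CPM in HG-NC and 21.0, 20.3 and 19.3 CPM in HG-OE (log2 fold change -0.97). ORC4, a subunit of the origin recognition complex, was at 90.4, 79.8 and 86.1 CPM against 52.8, 47.4 and 49.2 CPM (-0.78). Neither overlapped between groups. KYNU, an enzyme of tryptophan breakdown, had -0.96, ACVR2A, an activin receptor, -0.62, GTDC1 -0.62, EPC2 -0.60, MMADHC -0.53 and MBD5 -0.36. The ninth gene, LYPD6, stood at 5.58, 4.62 and 5.19 CPM against 5.72, 5.36 and 6.86 CPM (0.22), with overlapping groups.

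Genes that lie next to each other were only weakly alike beyond the common shift. The Spearman correlation between genes adjacent in the order of those with enough counts was 0.134. In 77 adjacent pairs, a minus-strand gene was followed by a plus-strand gene with start sites within 1000 bases, and in some of these pairs the genes overlapped. Their log2 fold changes differed by a median of 0.258, against 0.284 in the other 732 adjacent pairs. The upper quartile was 0.392 against 0.503. Both genes were below 0 in 51 of the 77 pairs. Since 81.7% of all genes on the chromosome were below 0, nothing is read from this count. NFE2L2, the regulator of antioxidant genes, and AGPS, an enzyme of ether lipid synthesis, start 10 bases apart and had -0.57 and -0.37. NDUFS1, a subunit of respiratory complex I, and EEF1B2, a translation elongation factor, start 76 bases apart and had -0.20 and 0.15. EEF1B2 was at 428, 385 and 406 CPM in HG-NC and 435, 448 and 469 CPM in HG-OE. It was thus above the controls in all HG-OE libraries beside a neighbour that was called lower.

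**Figure D4:**
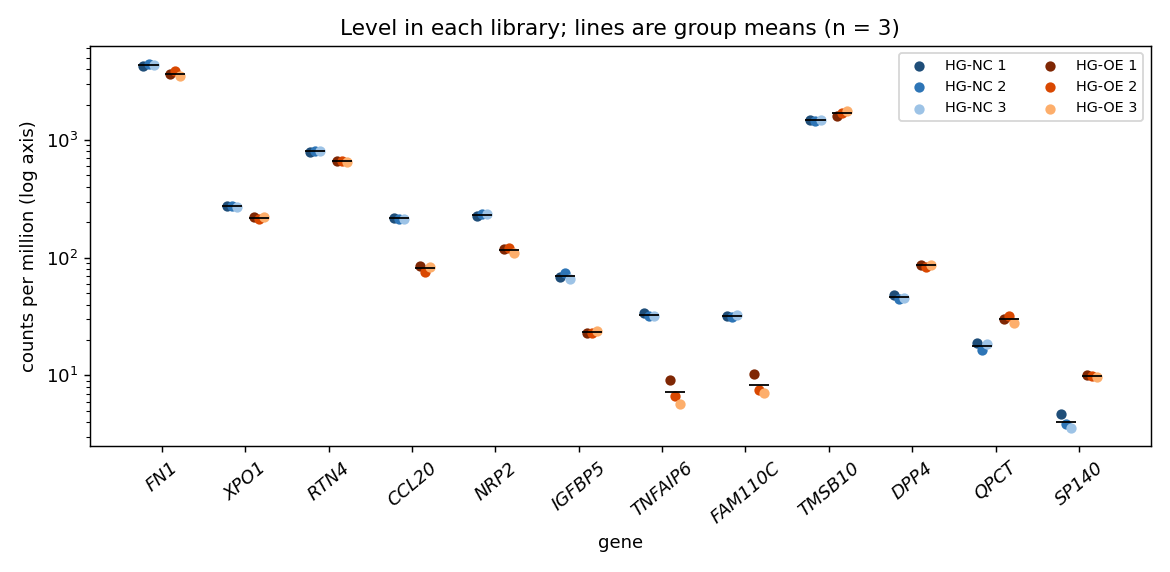
CPM (vertical axis, log scale) of 12 chromosome 2 genes (horizontal axis) in the 3 HG-NC libraries (blue) and 3 HG-OE libraries (orange and brown), with lines for the group means. FN1 to FAM110C are lower in HG-OE, and TMSB10, DPP4, QPCT and SP140 are higher, with no overlap between the groups in any of the 12.

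The most counted genes show the shift without help from rare reads. FN1 (chr2:215360440-215436073), which encodes the matrix protein fibronectin, was at 4245, 4411 and 4320 CPM in HG-NC and 3612, 3837 and 3486 CPM in HG-OE (log2 fold change -0.25). RTN4, a protein that shapes the endoplasmic reticulum, was at 798, 804 and 800 CPM against 660, 667 and 646 CPM (-0.28). FN1 and RTN4 were thus close to the chromosome's median. The ribosomal protein genes RPL37A (-0.22), RPS27A (-0.11) and RPS7 (-0.09) were called lower but by less. PTMA, the gene of prothymosin alpha, was at 902, 826 and 806 CPM against 816, 845 and 935 CPM (0.03) and was not called.

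TMSB10, which encodes an actin-binding thymosin, was the most counted gene on the other side. It stood at 1473, 1442 and 1488 CPM in HG-NC and 1614, 1693 and 1752 CPM in HG-OE (log2 fold change 0.20). All HG-OE libraries were above all HG-NC libraries.

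A gene was taken to escape the shift when its log2 fold change was above 0 and all HG-OE libraries lay above all HG-NC libraries. This held for the 67 genes named above, of which 55 were called higher, and another 81 genes above 0 overlapped between groups. The median of the 67 was 0.398. They lay on both arms, 22 among the 338 genes of the short arm and 45 among the 472 of the long arm, but not evenly. Of the 25 windows, 21 held at least 1. The most in a window was 7, from 210 to 220 Mb and again from 230 to 240 Mb. In the stretches drawn with a penalty of 3, 40 of 598, 4 of 91 and 15 of 121 genes were called higher, not all of them escaping genes. Such calls were thus most frequent in the last and mildest stretch. In gene order, 9 escaping genes stood directly after another. By type, 61 were protein-coding. All 67 stayed above 0 without HG-OE 3. This follows from the definition, which puts each HG-OE library above all HG-NC libraries, so it is no separate check.

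The largest such difference was in SP140 (chr2:230203110-230313215), a nuclear body protein of immune cells, at 4.72, 3.88 and 3.58 CPM in HG-NC and 10.0, 9.93 and 9.76 CPM in HG-OE (log2 fold change 1.29). SLC16A14, a transporter gene of the monocarboxylate family that lies nearby, was at 7.91, 7.94 and 7.30 CPM against 14.9, 14.2 and 12.9 CPM (0.86). The related nuclear body genes beside them did not move the same way, as SP110 had 0.03 and was not called and SP100 had -0.22 and was called lower. DPP4 (chr2:161992245-162074394), whose promoter is shown above, was at 48.1, 45.0 and 45.5 CPM against 87.0, 84.2 and 87.3 CPM (0.90). IFIH1, a sensor of double-stranded RNA and the next gene in order, was at 18.2, 17.5 and 15.4 CPM against 10.2, 8.52 and 8.40 CPM (-0.92). These genes, adjacent in the order of genes with enough counts, thus stood on opposite sides with no overlap between groups.

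CYP27A1, a mitochondrial sterol hydroxylase, was at 5.23, 4.43 and 4.94 CPM in HG-NC and 8.41, 8.90 and 9.59 CPM in HG-OE (0.88). QPCT, which caps peptides with pyroglutamate, was at 18.9, 16.3 and 18.6 CPM against 30.4, 32.1 and 27.9 CPM (0.75). Among the genes with enough counts, QPCT is followed directly by CDC42EP3, an effector of the CDC42 GTPase. CDC42EP3 was among the most lowered genes at 369, 386 and 370 CPM against 183, 160 and 145 CPM (-1.20). Also among the 10 highest were LBH (0.80), LINC01963 (0.79), ITGA6 (0.78), FAHD2B (0.76) and RPLP0P6 (0.73). FAHD2B has a close paralog and RPLP0P6 is a pseudogene of a ribosomal protein gene, so their reads may be shared with other copies and their values are uncertain. ITGA6 and LINC01963 were lower without HG-OE 3, at 0.60 and 0.50.

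Several integrin alpha chains, subunits of receptors for the matrix, were among the escaping genes, whereas the beta chain ITGB6 was called lower (-0.32). ITGAV was at 415, 390 and 401 CPM in HG-NC and 504, 484 and 511 CPM in HG-OE (0.31). ITGA6 was at 9.40, 9.13 and 8.44 CPM against 12.7, 14.5 and 19.1 CPM (0.78), and ITGA4 at 4.48, 3.84 and 4.54 CPM against 7.03, 7.93 and 5.36 CPM (0.66). ITGA6 was highest and ITGA4 lowest in HG-OE 3. Other well-counted genes of this kind were BOK, a relative of BCL2, at 60.7, 64.8 and 64.1 CPM against 94.5, 97.2 and 93.6 CPM (0.59), and MAT2A, which makes S-adenosylmethionine, at 180, 168 and 179 CPM against 204, 227 and 220 CPM (0.30). Both BOK and MAT2A were called higher.

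APOB, VIL1, COL5A2 and SLC40A1 were high mostly in HG-OE 3 and are not counted as escaping. APOB, the main apolipoprotein of liver lipoproteins, had 5, 0 and 53 counts in HG-NC and 0, 0 and 1583 in HG-OE, and is the gene that the filter removed. VIL1, a microvillus protein, had 15, 29 and 42 counts against 25, 19 and 939, so its log2 fold change of 3.39 became -0.49 without HG-OE 3. COL5A2, a fibrillar collagen, had 63, 88 and 75 counts against 74, 59 and 679, and its 1.72 became -0.29. SLC40A1, the iron exporter, had 83, 112 and 106 counts against 75, 76 and 182, and its 0.03 became -0.52. VIL1 and COL5A2 are 2 of the 3 genes called at least 2-fold higher, SP140 being the other. The part of the liver transcripts in these values was not tested.

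At the other end, 39 genes lay more than 0.5 below the median and 59 more than 0.5 above it. The lowest, TNFAIP6 (chr2:151357592-151380046), was at 34.1, 31.8 and 32.2 CPM in HG-NC and 9.13, 6.63 and 5.74 CPM in HG-OE (log2 fold change -2.19). FAM110C, at the very start of the chromosome, was at 31.8, 31.5 and 32.8 CPM against 10.3, 7.59 and 7.03 CPM (-1.94). IGFBP5 (chr2:216672105-216695549), a secreted binder of insulin-like growth factors, was at 68.4, 74.1 and 66.3 CPM against 22.8, 23.1 and 24.1 CPM (-1.57). These genes were far below the shift of their surroundings in every HG-OE library. CCL20 was at 219, 214 and 215 CPM against 85.4, 75.4 and 83.3 CPM (-1.41).

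The cytoskeletal ADD2, which encodes an adducin, had -1.41, the ephrin receptor EPHA4 -1.37, the phosphodiesterase PDE11A -1.29, the raft protein MAL -1.27 and the cytokine IL1A -1.22. None of these groups overlapped.

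Among genes of interleukin-1 signalling and inflammation, 13 of those listed met the minimum, with a median of -0.532, against -0.278 for the whole chromosome. Of these 13, 10 (76.9%) were called lower and 0 higher, against 63.3% called lower on the chromosome and 32.2% over all genes. These shares, and 7.28% and 29.7% called higher, are the ones to set beside each list that follows. Beside TNFAIP6, CCL20 and IL1A, they included PELI1, a ubiquitin ligase of Toll-like receptor signalling (-0.98), REL, a subunit of NF-kB (-0.92), CFLAR, an inhibitor of caspase-8 (-0.65), and CASP8 itself (-0.53). The receptor IL1R1 was at 6.88, 6.91 and 6.44 CPM in HG-NC and 7.41, 7.38 and 9.18 CPM in HG-OE (0.25, or 0.13 without HG-OE 3) and was not called. The list was written with earlier results of these data known, and nothing particular to it is read from its counts. The lists that follow were written from general knowledge in the same way and are loose, as some members fit their heading only in part. Examples are ADAM17 and PLEKHA3 under interferon response, STRN and INO80D under RNA binding, CDC42EP3 under the cell cycle and CAD under translation. All of these examples were called lower.

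Of the 11 genes listed under interferon response, 7 (63.6%) were called lower and 1, SP140, higher, with a median of -0.236. PNPT1, an RNA exonuclease of mitochondria, had -0.68. The transcription factor STAT4 was at 27.8, 28.0 and 25.9 CPM in HG-NC and 28.7, 26.5 and 28.99 CPM in HG-OE (0.04), with overlapping groups.

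The 24 genes of matrix, adhesion and TGF-beta signalling had the widest spread after the inflammation list, with an interquartile range of 0.596 around a median of -0.309. Of these, 15 (62.5%) were called lower, against 63.3% on the chromosome, and 6 higher. NRP2, a co-receptor for semaphorins and VEGF, was at 228, 234 and 234 CPM against 118, 120 and 111 CPM (log2 fold change -0.997). TGFA, a ligand of the EGF receptor, had -0.63, the activin receptor ACVR2A -0.62 and the adhesion protein EPCAM -0.56. Higher were the integrin alpha chains above, DPP4, GPC1, a heparan sulfate proteoglycan (0.40), and COL5A2, the last only through HG-OE 3. ITGB6, also of this list, was called lower.

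RNA binding and splicing genes had an interquartile range of 0.349, near the 0.372 of all genes on the chromosome. Of 32, 26 (81.2%) were called lower, against 63.3% on the chromosome and 32.2% over all genes, and 0 higher, with a median of -0.321. SF3B1, a core subunit of the U2 particle, was at 230, 228 and 221 CPM in HG-NC and 184, 180 and 184 CPM in HG-OE (-0.31). The nucleolar protein NCL was at 740, 704 and 708 CPM against 562, 551 and 614 CPM (-0.32), and the nuclear export receptor XPO1 at 275, 278 and 270 CPM against 221, 215 and 221 CPM (-0.32). These 3 were thus within 0.05 of the chromosome's median. NOP58, a protein of small nucleolar particles, had -0.68, HNRNPLL, a splicing regulator of the hnRNP family, -0.66, and HNRNPA3, another, -0.21. The splicing factor SRSF7 was at 146, 137 and 135 CPM against 147, 144 and 158 CPM (0.10) and was not called.

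Of 17 translation genes, 13 (76.5%, against 63.3% on the chromosome and 32.2% over all genes) were called lower and 1, EEF1B2, higher (median -0.217). The interferon-induced kinase EIF2AK2 had -0.47 and the related EIF2AK3, a sensor of stress in the endoplasmic reticulum, 0.04. Of 27 genes of the cell cycle and genome maintenance, 16 (59.3%) were called lower and 3 higher (median -0.291). The 3 called higher were MSH6, a mismatch repair gene (0.12), CDCA7, a regulator of DNA methylation (0.22), and MZT2A, a subunit of the gamma-tubulin complex (0.37), which has a close paralog in MZT2B (0.07), so both are uncertain. CDCA7 had 0.13 without HG-OE 3.

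Of 35 genes of mitochondria and metabolism, 23 (65.7%, against 63.3% on the chromosome) were called lower and 3 higher, with a median of -0.198. The chaperonin genes HSPD1 and HSPE1, whose products work together, were alike at -0.24 and -0.28. HSPD1 was at 796, 759 and 742 CPM in HG-NC and 631, 633 and 679 CPM in HG-OE. The phosphate transporter SLC20A1 had -0.50 and MTHFD2, an enzyme of mitochondrial folate metabolism, -0.49. Higher were CYP27A1, ATP5MC3, a subunit of ATP synthase (0.22), and IDH1, the cytosolic isocitrate dehydrogenase. IDH1 was at 55.4, 52.2 and 52.6 CPM against 56.8, 58.8 and 82.7 CPM (0.31), with HG-OE 3 well above the others. Without HG-OE 3, IDH1 had 0.12 and ATP5MC3 0.14.

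Of 25 transcription factor and clock genes, 15 (60.0%, against 63.3% on the chromosome) were called lower and 1 higher (median -0.338). PAX8, which specifies kidney epithelium, was at 603, 655 and 654 CPM in HG-NC and 462, 472 and 408 CPM in HG-OE (-0.51). NFE2L2 was at 220, 226 and 217 CPM against 157, 142 and 146 CPM (-0.57). The one called higher was ARID5A, an RNA-binding protein that stabilises inflammatory transcripts, at 9.32, 9.09 and 11.1 CPM against 14.7, 16.1 and 15.8 CPM (0.66). The HOXD genes differed within their cluster, with HOXD11 at -0.67, HOXD10 at -0.68, HOXD9 at -0.25, HOXD8 at -0.02 and HOXD4 at -0.34, of which HOXD9 and HOXD8 were not called. Of 28 cytoskeleton and trafficking genes, 20 (71.4%) were called lower and 2 higher (median -0.26), namely RHOB, a small GTPase (0.50), and VIL1. The chaperonin subunits CCT4 and CCT7 had -0.43 and -0.35.

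By gene type, the 761 protein-coding genes had a median of -0.28 and the 39 long non-coding RNAs one of -0.259. Gene length went with small differences in the shift: the shortest class of 4 equal classes of genes (median 8526 bases) had a median of -0.209 and the longest (174279 bases) one of -0.325, and over the 810 genes the Spearman correlation with length was -0.116. Divided by counts in the same way, the class with the fewest had a median of -0.251 with an SD of 0.55, and the class with the most one of -0.242 with an SD of 0.276. The median standard error was 0.115 in the first and 0.0432 in the last.

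A RefSeq promoter, from 250 bases before to 50 after the start, was matched by symbol for 689 of the 810 genes. CG, which reads the same on both strands, was counted in each and divided by the number that the C and G content alone would give. Of all 35116 promoters in the table, 96% held at least 1 CG, and 60.0% had a ratio no higher than the upper limit of the CpG-poorest of 4 equal classes of the chromosome 2 genes (0.723). The size of the shift did not follow this ratio, with medians of -0.251, -0.283, -0.282 and -0.286 from the CpG-poorest to the richest class and a Spearman correlation of -0.049. The spread did: the SD was 0.441, 0.369, 0.315 and 0.265 in the same order, and 21.4%, 11.0%, 8.14% and 5.23% of the genes lay more than 0.5 from the chromosome's median.

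**Figure D5:**
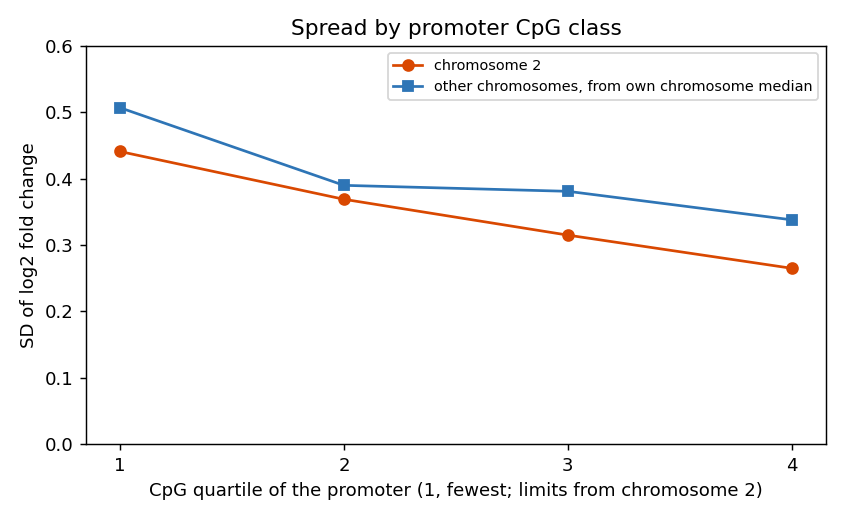
Standard deviation (SD) of log2 fold changes (vertical axis) of genes in 4 classes of promoter CpG (horizontal axis, 1 being the poorest), for chromosome 2 in orange and for other chromosomes, each gene taken from its own chromosome's median, in blue. The SD goes from 0.441 to 0.265 on chromosome 2 and from 0.507 to 0.338 elsewhere.

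The count level was somewhat lower in the CpG-poorest class, with medians of 828, 1007, 1043 and 1100 counts. Among the genes at or above the median count, 13.5%, 4.49%, 1.11% and 3.26% lay more than 0.5 from the median. The same classes on the other chromosomes, with each gene taken from its own chromosome's median, had SDs of 0.507, 0.39, 0.381 and 0.338, so the order was seen there too. TNFAIP6 and CCL20, shown above, belong to the CpG-poorest class and HSPE1 to the richest, whereas DPP4 and FAM110C, far above and far below the shift, belong to classes 2 and 3. No test was made of these differences.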

How the data were processed

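Read trimming was followed by alignment with HISAT2 (GRCh38) and by counting of unique alignments per gene, all by the authors. The deposited counts are whole numbers that were not normalized. FPKM values made by the authors, with 2 decimals, were used for 1 alternative. The methods name ComBat_seq for batch correction but do not say whether it entered the counts, and the counting tool is not given in the sources used here. The labels speak of a control plasmid and the methods of a control lentivirus.

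In the present work edgeR 4.0.16 (R 4.3.3) was run on the counts, with TMM scaling and the default low-count filter, which kept 17142 genes. Groups were compared by its quasi-likelihood test, p-values were adjusted over those genes (Benjamini-Hochberg), and CPM values are TMM-scaled. DESeq2 1.42.0 and limma 3.58.1 served as alternatives. Positions came from GENCODE release 44 on GRCh38, matched by Ensembl identifier. The segmentation limited values to the median ± 1, used a penalty factor of 5 and was tested, like the edgeR fit, on simulated data. Short and long arms were split at 93 Mb.

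The chromosome, the gene lists and the tests were chosen with earlier results of these data known. The genes named are those beside segment edges, the 10 highest and 10 lowest with groups that do not overlap, the 8 most counted, and up to 6 of each list. Other genes named were chosen after their values were seen. Levels between genes were not compared. Where a library has 0 counts, up to 3 remain possible, and such limits cover counting error only. Some of the genes this rule selects are not reported here.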

Additional observations from a re-analysis of the deposited data

How the results depend on the processing

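The median stayed negative in every setting tried: it was -0.293 without the low-count filter, -0.267 with a minimum of 30 counts and -0.228 with limma on log2(FPKM + 1), a scale that understates the change of low genes. Leaving out 1 library gave medians from -0.285 to -0.269, 464 to 533 genes called lower, 46 to 63 called higher, 1 to 1 segments and 75 to 83 escaping genes against 67, as fewer libraries have to be apart. This alternative for the escaping genes was added after the data were seen. Segments numbered 2 with a minimum of 300 counts, 3 with a penalty factor of 3 and 2 with values not limited. With a 2-fold change required, 14 genes were called lower and 3 higher.

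The labels give both groups the same replicate numbers. Deviations from the group means of same-numbered libraries correlated at -0.0273, 0.0301 and -0.000993, so they share only a number. With the number as a replicate block, the median was -0.278, 516 genes were called lower, 60 higher and 1 segment was found. The 3 libraries a group and the depth limit single genes near the minimum most, and no batch was named that could be fitted.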
